A study of Mus musculus with 4 samples.

Results

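The Hox genes encode homeodomain transcription factors and lie in the clusters A, B, C and D, on mouse chromosomes 6, 11, 15 and 2. They were taken as every gene whose symbol is Hox, a cluster letter and a paralogue number, read through probe sets annotated to that gene alone, which gave 37 of the 19938 genes measured. Hoxb8 had no probe set of its own, only one shared with Hoxb7. The arrays measured total RNA from the induced pluripotent stem (iPS) cell lines 492B4 and 178B5, from v6.5, a line of embryonic stem (ES) cells, and from mouse embryonic fibroblasts (MEF), on 1 array each. Both iPS lines and the MEF had a mixed DBA/2, C57BL/6 and 129S4 background, while v6.5 came from an F1 cross of the strains 129 and C57BL/6, and no label names a drug, a time point, the age of the embryos or the number of embryos behind the MEF. The 3 pluripotent lines were cultured on SNL feeder cells blocked by mitomycin C, in serum medium with 2-mercaptoethanol, and the MEF were cultured in serum medium with no feeder layer named. The labels were checked against marker genes. In limma's test 14 of 15 pluripotency markers were higher in the lines, against 7.9% of all genes. The largest rises were in Dppa5a (8.06 log2), Tdgf1 (7.22 log2) and Pou5f1 (6.30 log2). All 24 measured fibroblast markers were lower on each line than on MEF, against 47.7% of all genes. Of these markers 16 were called, against 9.71% of all genes, with the largest called falls in Lox (-6.17 log2), Fbln5 (-5.38 log2) and Col1a2 (-4.76 log2). The number called was 5 without iPS 178B5, 9 without iPS 492B4 and 24 without ES.

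Hox proteins give cells along the head-to-tail axis, and along the limb, their regional identity. Genes of one paralogue number in different clusters descend from one ancestral gene, and the order of the genes on the chromosome follows the order of their expression domains, with low numbers active toward the head and high numbers toward the tail and the tips of the limbs. Fibroblasts keep a Hox pattern of the body site they came from, whereas in ES cells the clusters are held in a repressed, Polycomb-marked state until differentiation.

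Every value is on a log2 scale and relative to the median of the same gene over the 4 arrays, so a value is a difference between arrays and not a level, genes cannot be ranked by abundance, and no marker can be said to be absent. The median of 4 values is the midpoint of the middle pair, so in a gene read by 1 probe set, as every Hox gene was, the middle pair of arrays, often iPS 178B5 and ES, read equal values of opposite sign by construction. In bulk RNA, fewer cells expressing a gene and less RNA per cell cannot be told apart. A gene was called when limma's adjusted p was under 0.05 and the difference between the mean of the lines and MEF was at least 1 log2. The spread in this test came from the 3 lines, and the same spread was taken for the single MEF array. No repeat culture of a line is described, so a p-value reflects only how these lines vary, which may be technical in part.

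Hox expression was lower in the pluripotent lines than in MEF for most of the family. Of 37 genes 24 were called lower, 0 higher and 13 were not called, beside 9.71% of all genes called lower and 7.9% called higher (17.6% in either direction). The family's median was -1.55 log2, beside -0.10 log2 over all genes. In 34 of 37 genes each of the 3 lines read below MEF, against 47.7% of all genes. Centring the arrays on 14 reference genes moved the median of all genes by -0.16 log2 and changed the split of calls over all genes to 1289 higher and 2448 lower, against 1576 and 1936 as deposited. The number of Hox genes called lower was 9 without iPS 178B5. Over all genes that fit called 744 lower, against 1936 with all arrays. The 15 Hox genes lost there had adjusted p between 0.0501 and 0.114 and kept differences between -3.52 and -1.05 log2. The number of Hox genes called lower was 22 without iPS 492B4 and 24 without ES. Over all genes 1739 and 2235 were called lower in these fits.

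**Figure D1:**
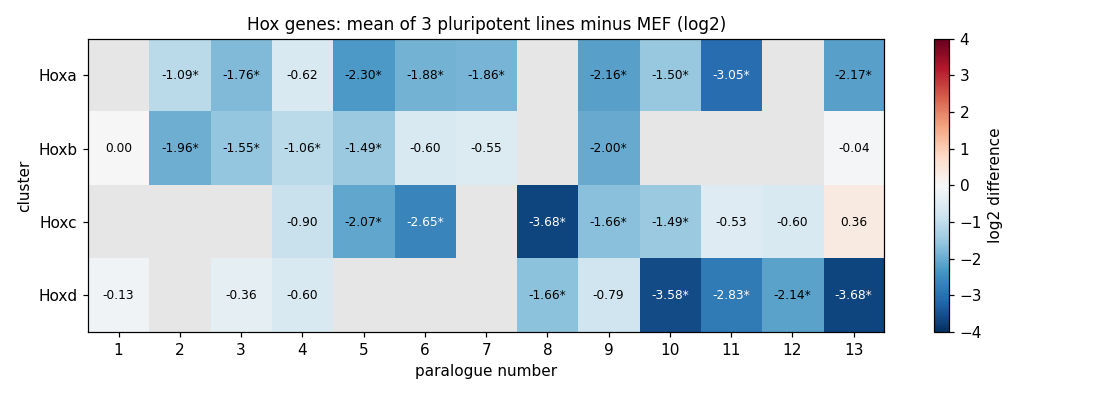
Mean of the 3 pluripotent lines minus MEF (log2) for each of the 37 Hox genes, with clusters in rows and paralogue numbers in columns. Asterisks mark the 24 genes called lower, grey cells have no gene or no probe set of its own, and the deepest values are those of Hoxc8 (-3.68), Hoxd13 (-3.68) and Hoxd10 (-3.58).

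In cluster D the difference was concentrated at high paralogue numbers. Of 9 genes 5 were called lower (Hoxd8 and Hoxd10 to Hoxd13), with a cluster median of -1.66 log2. Hoxd13, which shapes digits and the genital tubercle, read -0.50 in iPS 492B4, -0.50 in iPS 178B5 and 0.50 in ES, against 3.51 in MEF. It fell by 3.68 log2 (12.8-fold, SD 0.58 over 3 lines, adjusted p = 0.0121). The 3 lines lay within about 1 log2 of each other and far from MEF. Hoxd10, which acts in hindlimb motor neurons and limb patterning, read -0.49 in iPS 492B4, -0.37 in iPS 178B5 and 0.37 in ES, against 3.42 in MEF. That was 12-fold lower in the lines (difference -3.58 log2, SD 0.47, adjusted p = 0.00916). Hoxd11, needed with Hoxa11 for the forearm bones and the kidney, read -0.59 in iPS 492B4, -0.57 in iPS 178B5 and 0.57 in ES, against 2.63 in MEF, and fell by 2.83 log2 (SD 0.66, adjusted p = 0.0271). The ES array stood above both iPS arrays in all 3 genes. Hoxd12, another digit gene, read -0.24 in iPS 492B4, -0.30 in iPS 178B5 and 0.24 in ES, against 2.04 in MEF, and fell by 2.14 log2. Hoxd8 read -0.29 in iPS 492B4, -0.21 in iPS 178B5 and 0.21 in ES, against 1.56 in MEF, and fell by 1.66 log2. The other genes of the cluster lay closer to MEF. Hoxd9 stood at -0.79 log2 (adjusted p = 0.0538), Hoxd4 at -0.60 log2 (adjusted p = 0.0774), Hoxd3 at -0.36 log2 (adjusted p = 0.232) and Hoxd1 at -0.13 log2 (adjusted p = 0.568), and none of these was called. Without iPS 178B5, Hoxd8 and Hoxd11 were not called (adjusted p = 0.0687 and 0.0771), and Hoxd11 was not called without iPS 492B4 either (adjusted p = 0.0567).

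The start regions of a strongly lower gene at one end of cluster D and of an uncalled gene at the other end are shown side by side with that of Hoxd10, from 250 bases before to 50 bases after the annotated start in RefSeq (GRCm38.p6), 5′ to 3′, with every CG dinucleotide in capitals.
Hoxd13 promoter, chr2:74667975-74668274 (+ strand): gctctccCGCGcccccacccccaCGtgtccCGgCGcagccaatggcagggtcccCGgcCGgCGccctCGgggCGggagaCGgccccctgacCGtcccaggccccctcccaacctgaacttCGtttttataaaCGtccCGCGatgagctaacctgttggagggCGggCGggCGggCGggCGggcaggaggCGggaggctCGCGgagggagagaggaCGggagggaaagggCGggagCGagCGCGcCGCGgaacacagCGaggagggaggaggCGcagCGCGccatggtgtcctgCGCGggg
Hoxd10 promoter, chr2:74691641-74691940 (+ strand): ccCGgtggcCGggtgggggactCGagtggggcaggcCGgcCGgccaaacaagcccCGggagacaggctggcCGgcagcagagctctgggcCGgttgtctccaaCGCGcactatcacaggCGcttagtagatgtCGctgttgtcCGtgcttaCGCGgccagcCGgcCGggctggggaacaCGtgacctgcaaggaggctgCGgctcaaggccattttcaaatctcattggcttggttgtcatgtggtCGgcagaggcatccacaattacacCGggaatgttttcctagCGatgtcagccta
Hoxd1 promoter, chr2:74762730-74763029 (+ strand): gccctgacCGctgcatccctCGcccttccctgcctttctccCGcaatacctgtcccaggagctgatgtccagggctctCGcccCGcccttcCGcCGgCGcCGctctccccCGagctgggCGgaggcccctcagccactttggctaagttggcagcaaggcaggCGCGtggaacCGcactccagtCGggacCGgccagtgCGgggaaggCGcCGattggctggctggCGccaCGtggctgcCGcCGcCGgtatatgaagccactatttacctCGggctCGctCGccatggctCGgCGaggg
All 3 windows were rich in CG dinucleotides, the sites of DNA methylation, with 37 in Hoxd13, 22 in Hoxd10 and 29 in Hoxd1, beside a median of 7 over 32851 windows of all genes. CG number did not follow the difference from MEF in these 3 windows. Windows were given for 22 Hox genes (24 windows), with a median of 14.5 CG and a range of 4 to 45. The letters TATAAA, searched on both strands, occurred in 4 of these windows, Hoxd13 included (16.7%, against 13.6% of all windows). The letters TTTATG, part of the site bound by the Cdx factors that act upstream of Hox genes, occurred in 5 (20.8%, against 11.9%), and in none of the 3 windows shown. The letters TGATTNAT, a joint site of Hox and Pbx proteins, occurred in 2 (8.33%, against 3.22%), which were windows of Hoxa2 and Hoxd11.

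Cluster C differed most from MEF in its middle. Of 9 genes 5 were called lower (Hoxc5, Hoxc6, Hoxc8, Hoxc9 and Hoxc10), with a median of -1.49 log2. Hoxc8, which patterns the thoracic skeleton, read -0.83 in iPS 492B4, -0.60 in iPS 178B5 and 0.60 in ES, against 3.40 in MEF. It fell by 3.68 log2 (12.8-fold, SD 0.77, adjusted p = 0.0205), and its SD over the lines was the largest among the Hox genes. Hoxc6, a marker of forelimb-level motor neurons, read -0.56 in iPS 492B4, -0.46 in iPS 178B5 and 0.46 in ES, against 2.46 in MEF, and fell by 2.65 log2 (SD 0.57, adjusted p = 0.0225). In both genes the iPS arrays were close together and the ES array lay between them and MEF. Hoxc5 read -0.38 in iPS 492B4, -0.30 in iPS 178B5 and 0.30 in ES, against 1.94 in MEF, and fell by 2.07 log2. Hoxc9, which sets thoracic motor neuron identity, read -0.16 in iPS 492B4, -0.11 in iPS 178B5 and 0.11 in ES, against 1.61 in MEF, and fell by 1.66 log2. Hoxc10, a lumbar motor neuron gene, read -0.52 in iPS 492B4, -0.14 in iPS 178B5 and 0.14 in ES, against 1.31 in MEF, and fell by 1.49 log2. The ends of the cluster lay closer to MEF. Hoxc4 passed the p threshold but not the fold minimum (-0.90 log2, adjusted p = 0.0197), Hoxc11 stood at -0.53 log2 (adjusted p = 0.0822) and Hoxc12 at -0.60 log2 (adjusted p = 0.15). Hoxc13, required for hair and nails, read 0.35 in iPS 492B4, 0.13 in iPS 178B5 and -0.13 in ES, against -0.24 in MEF. It was the only Hox gene that read higher on every line than on MEF, by 0.36 log2, and was not called (adjusted p = 0.327). Without iPS 178B5, 0 genes of the cluster were called, with Hoxc8 at an adjusted p of 0.067 and a difference of -3.52 log2.

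Cluster A was lower nearly throughout, with 9 of 10 genes called and a median of -1.87 log2. Hoxa11, which builds the forearm and kidney with Hoxd11, read -0.24 in iPS 492B4, -0.31 in iPS 178B5 and 0.24 in ES, against 2.94 in MEF. It fell by 3.05 log2 (8.26-fold, SD 0.30, adjusted p = 0.00667). Among the other posterior genes, Hoxa13, a partner of Hoxd13 in the digits, read -0.50 in iPS 492B4, -0.23 in iPS 178B5 and 0.23 in ES, against 2.01 in MEF, and fell by 2.17 log2. Hoxa9, a regulator of blood progenitors, read -0.18 in iPS 492B4, -0.18 in iPS 178B5 and 0.18 in ES, against 2.10 in MEF, and fell by 2.16 log2. All lines were far below MEF in these genes. Hoxa10, needed in the uterus, read -0.57 in iPS 492B4, -0.20 in iPS 178B5 and 0.20 in ES, against 1.31 in MEF, and fell by 1.50 log2 (SD 0.38, adjusted p = 0.0384). In the centre of the cluster, Hoxa5, which acts in lung and rib cage development, read -0.20 in iPS 492B4, -0.07 in iPS 178B5 and 0.07 in ES, against 2.23 in MEF, and fell by 2.30 log2 (SD 0.13, adjusted p = 0.00564). Its neighbours were lower as well. Hoxa6 read -0.11 in iPS 492B4, -0.05 in iPS 178B5 and 0.05 in ES, against 1.84 in MEF, and fell by 1.88 log2, with the second smallest SD (0.08) among the Hox genes called. Hoxa7 read -0.44 in iPS 492B4, -0.16 in iPS 178B5 and 0.16 in ES, against 1.72 in MEF, and fell by 1.86 log2. Toward the head end, Hoxa3, which forms the thymus and parathyroid, read -0.15 in iPS 492B4, -0.14 in iPS 178B5 and 0.14 in ES, against 1.71 in MEF, and fell by 1.76 log2. Hoxa2, which specifies the hindbrain and pharyngeal arches, read -0.17 in iPS 492B4, -0.14 in iPS 178B5 and 0.14 in ES, against 1.03 in MEF, and fell by 1.09 log2, a difference close to the fold minimum. Hoxa4 was the exception, at -0.62 log2 (adjusted p = 0.0686). Without iPS 178B5, 5 genes were called (Hoxa3, Hoxa5, Hoxa6, Hoxa9 and Hoxa11), and Hoxa2 was not called without iPS 492B4 (adjusted p = 0.0544).

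Cluster B had the smallest median of the clusters, -1.06 log2, with 5 of 9 genes called lower. Hoxb9, which shapes the thoracic skeleton and mammary gland, read -0.36 in iPS 492B4, -0.14 in iPS 178B5 and 0.14 in ES, against 1.88 in MEF, and fell by 2.00 log2 (4.01-fold, SD 0.25, adjusted p = 0.0106). Hoxb2, a hindbrain gene, read -0.16 in iPS 492B4, -0.23 in iPS 178B5 and 0.16 in ES, against 1.89 in MEF, and fell by 1.96 log2 (SD 0.21, adjusted p = 0.00902). The largest differences thus belonged to genes near opposite ends of the cluster. Hoxb3, active in hindbrain and pharynx, read -0.41 in iPS 492B4, -0.05 in iPS 178B5 and 0.05 in ES, against 1.41 in MEF, and fell by 1.55 log2. Hoxb5, active in the precursors of the gut nervous system, read -0.18 in iPS 492B4, -0.05 in iPS 178B5 and 0.05 in ES, against 1.42 in MEF, and fell by 1.49 log2. Hoxb4, known for expanding blood stem cells when overexpressed, read -0.12 in iPS 492B4, 0.00 in iPS 178B5 and 0.00 in ES, against 1.02 in MEF, and fell by 1.06 log2. The Hoxb4 difference was just past the fold minimum with the smallest SD among the Hox genes (0.07), and with each array centred on its own median it stood at -0.99 log2 and was not called. Hoxb6 stood at -0.60 log2 (adjusted p = 0.195) and Hoxb7 at -0.55 log2 (adjusted p = 0.189). A probe set annotated to both Hoxb7 and Hoxb8, left out of the gene values, read -0.10 in iPS 492B4, -0.33 in iPS 178B5 and 0.10 in ES, against 0.96 in MEF. Neither outermost gene was called. Hoxb1, the hindbrain gene at the head end, read -0.15 in iPS 492B4, 0.00 in iPS 178B5 and 0.16 in ES, against 0.00 in MEF (0.00 log2, adjusted p = 0.99), and its sign was negative with reference centring. Hoxb13, a prostate and tail gene, stood at -0.04 log2 (adjusted p = 0.879). Without iPS 178B5 only Hoxb2 was called in cluster B (adjusted p = 0.0454).

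**Figure D2:**
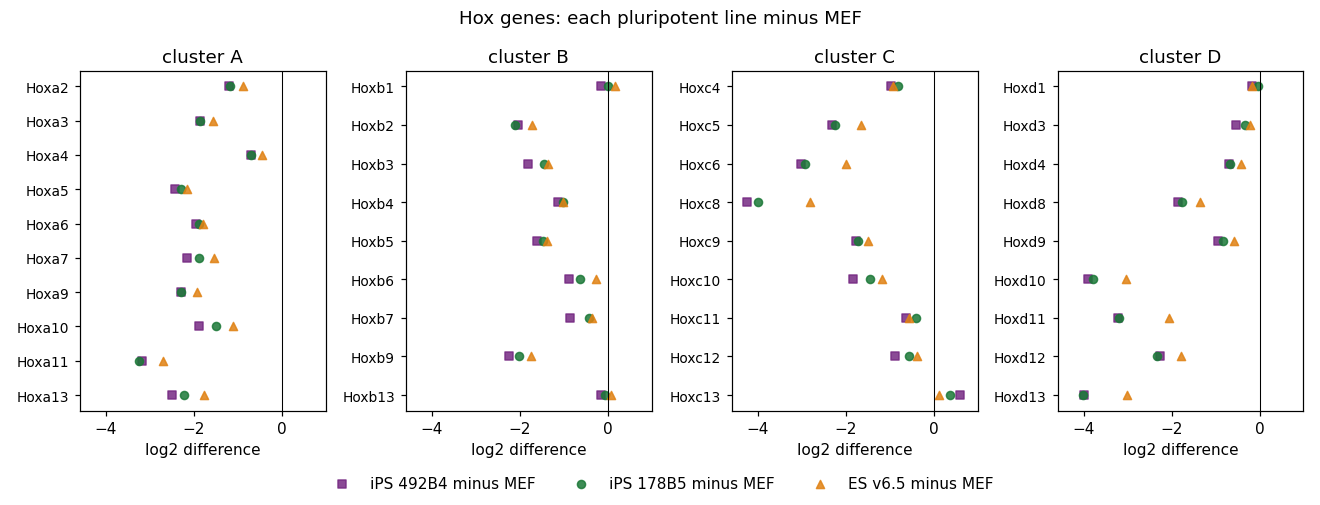
Difference of each pluripotent line from MEF (log2, horizontal axis) for the Hox genes of clusters A to D, with paralogue numbers running down each panel. The ES triangle lies to the right of both iPS symbols in most rows, and the points of Hoxb1, Hoxb13 and Hoxd1 sit at about 0.

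Read across clusters, the class medians differed while their ranges overlapped. The anterior genes, paralogues 1 to 3, had 4 of 7 called lower with a median of -1.09 log2. The central genes, paralogues 4 to 8, had 9 of 14 with a median of -1.57 log2, and the posterior genes, paralogues 9 to 13, had 11 of 16 with a median of -1.83 log2. The posterior class ran between -3.68 and 0.36 log2, and no test was made between the classes. Medians within a class also differed between clusters, over few genes, with overlapping ranges and no test. Posterior genes had a median of -2.83 log2 in cluster D and -2.17 log2 in cluster A, but -0.60 log2 in cluster C. Central genes had -2.36 log2 in cluster C and -0.83 log2 in cluster B. Without iPS 178B5 the counts called lower were 2 anterior, 2 central and 5 posterior genes.

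By single paralogue number, all measured members were called lower for numbers 2, 5, 8 and 10. Number 10 held 3 genes with a median of -1.50 log2, number 5 held 3 with -2.07 log2, number 2 held Hoxa2 and Hoxb2 with -1.53 log2, and number 8 held Hoxc8 and Hoxd8 with -2.67 log2. Number 1 (Hoxb1 and Hoxd1) was the only one with no call, at a median of -0.06 log2. All remaining numbers held both called and uncalled genes. Only Hoxb4 of 4 number 4 genes was called, with a median of -0.76 log2, although these genes lay close together, between -1.06 and -0.60 log2. Number 13 ran between -3.68 and 0.36 log2. It combined Hoxd13 and Hoxa13, both lower, with Hoxb13 and Hoxc13, neither called. The correlation of paralogue number with the difference was described within each cluster, across genes that share the same 4 arrays. Spearman's rho was -0.60 in cluster A (10 genes), 0.03 in cluster B (9), 0.67 in cluster C (9) and -0.92 in cluster D (9). Higher numbers thus went with larger falls in clusters A and D. In cluster C the rho did not reflect a steady trend. The fall there grew from Hoxc4 (-0.90 log2) to Hoxc8 (-3.68 log2), and Hoxc9 to Hoxc13 all lay closer to MEF than Hoxc8.

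The protein-coding genes that flank the clusters were called about as often as all genes. The nearest 3 with a probe set of their own on each side of each cluster, by gene order in GRCm38.p6, gave 24 genes, of which 1 was called lower, 3 higher and 20 neither, with a median of 0.06 log2. Over all genes 9.71% were called lower and 7.9% higher. Beside cluster A, Skap2 stood at -0.09 log2 (adjusted p = 0.815) and Evx1, a homeobox gene next to Hoxa13, at -0.27 log2 (adjusted p = 0.465). Evx2, its counterpart next to Hoxd13, read -0.67 log2 from MEF, less than the fold minimum (adjusted p = 0.0374), and Mtx2, at the other end of cluster D, stood at -0.04 log2 (adjusted p = 0.855). At the edges beside Evx1 and Evx2 the nearest Hox genes, Hoxa13 and Hoxd13, were called lower. At the Mtx2 edge the nearest Hox gene, Hoxd1, was not called either. Beside cluster B, Ttll6, next to Hoxb13, was 2.07 log2 higher in the lines (adjusted p = 0.0417), and Cbx1, a heterochromatin protein gene, 1.68 log2 higher (adjusted p = 0.00796). Snx10 near cluster A was 1.06 log2 higher (adjusted p = 0.0137). Calcoco2, also beside cluster B, averaged 2.54 log2 above MEF with an uneven spread over the lines (SD 0.80), which missed the threshold (adjusted p = 0.0545). The lower gene was Atf7 near cluster C, which fell by 1.06 log2 (adjusted p = 0.0397).

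**Figure D3:**
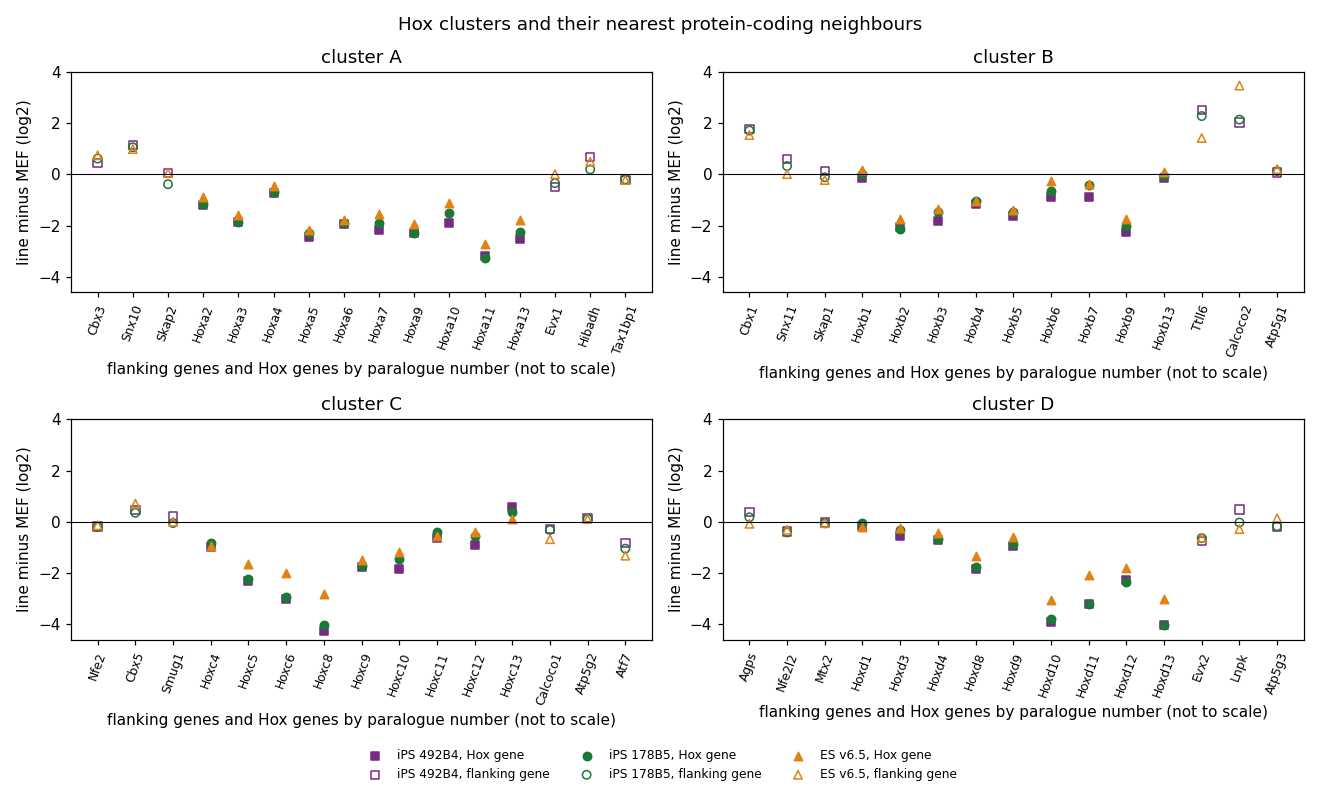
Difference of each pluripotent line from MEF (log2, vertical axis) for the Hox genes by paralogue number (filled symbols) and the 3 nearest protein-coding genes on each side (open symbols), spaced evenly. Evx2 lies at -0.67 log2 next to Hoxd13 at -3.68, while at the other end of cluster D Mtx2 (-0.04) and Hoxd1 (-0.13) both lie close to 0.

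The clusters also hold microRNA and long noncoding RNA genes, whose hairpins or transcripts had probe sets. The mature 5p arms of the microRNAs, from RefSeq (GRCm38.p6), are shown because members in different clusters share a seed, the bases 2 to 8 that choose targets, here in capitals.
miR-10a, between Hoxb4 and Hoxb5, chr11:96317186-96317208 (+ strand): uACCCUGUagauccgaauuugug
miR-10b, in cluster D, chr2:74726074-74726096 (+ strand): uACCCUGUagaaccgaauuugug
miR-196a, in cluster B, chr11:96265187-96265208 (+ strand), and in cluster C, chr15:102973365-102973386 (+ strand): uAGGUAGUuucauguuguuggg
miR-196b, between Hoxa9 and Hoxa10, chr6:52230129-52230150 (- strand): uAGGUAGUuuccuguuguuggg
The miR-10 arms differ by U12A from miR-10a to miR-10b, and the miR-196 arms by A12C from miR-196a to miR-196b, counted from the 5′ end, both outside the seed. None of their genes was called in limma's test. Mir196b read -0.13 in iPS 492B4, 0.03 in iPS 178B5 and -0.03 in ES, against 0.60 in MEF, a difference of -0.64 log2 (adjusted p = 0.0436) that stayed under the fold minimum. Mir196a-1 stood at -0.25 log2 (adjusted p = 0.27), Mir196a-2 at 0.00 log2 (adjusted p = 0.993), Mir10a at -0.01 log2 (adjusted p = 0.956), Mir10b at 0.00 log2 (adjusted p = 0.996) and Mir615 at -0.22 log2 (adjusted p = 0.516). The differences of the Hox genes beside them varied, for example Hoxa9 at -2.16 log2 beside Mir196b and Hoxd4 at -0.60 log2, not called, beside Mir10b. A probe set on a hairpin gene in labelled total RNA does not read the mature microRNA. Among long noncoding RNAs, Hoxaas2 read -0.12 in iPS 492B4, 0.02 in iPS 178B5 and -0.02 in ES, against 0.87 in MEF (-0.91 log2, adjusted p = 0.0186), Hottip, transcribed from the Hoxa13 end of cluster A, stood at -0.73 log2 (adjusted p = 0.0639), Hoxd3os1 at -0.40 log2 (adjusted p = 0.172) and Haglr at -0.17 log2 (adjusted p = 0.473), and none passed the fold minimum.

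Both iPS lines read lower than the ES line for most Hox genes, by small amounts. ES lay above both iPS lines in 32 of 37 genes and below both in 2, where ES lay above both in 47.7% of all genes. The median of iPS minus ES was -0.31 log2 over the Hox genes and -0.06 log2 over all genes. In a fit with 3 groups, whose single residual degree of freedom came from the iPS lines, limma called 0 Hox genes and 0 genes in all. At an unadjusted p under 0.05 there were 10 Hox genes, beside 15.4% of all genes. Recentring the arrays gave 76 calls over all genes with the reference genes and 44 with array medians, none of them a Hox gene.

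The largest differences between iPS and ES belonged to genes with large differences from MEF. For Hoxc8 they were -1.43 log2 for iPS 492B4 and -1.20 log2 for iPS 178B5 (mean -1.32 log2, adjusted p = 0.125). Hoxd11 followed with -1.16 log2 for iPS 492B4 and -1.13 log2 for iPS 178B5, at the lowest adjusted p of the family (0.113). Hoxd13 differed by -0.99 log2 for iPS 492B4, and iPS 178B5 lay within 0.0069 log2 of that line (adjusted p = 0.134). In these genes both iPS lines lay on the same side at nearly the same distance. Hoxc6 differed by -1.03 log2 for iPS 492B4 and -0.93 log2 for iPS 178B5, and Hoxd10 by -0.86 log2 for iPS 492B4 and -0.75 log2 for iPS 178B5. Cluster D had a median of -0.46 log2, cluster C -0.34, cluster A -0.33 and cluster B -0.27. Hoxc13 ran the other way, with 0.48 log2 for iPS 492B4 and 0.26 log2 for iPS 178B5, and so did Hoxd1, with 0.01 log2 for iPS 492B4 and 0.14 log2 for iPS 178B5.

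Fibroblast markers differed between iPS and ES in the same direction. Of 24 measured markers ES lay above both iPS lines in 22, against 47.7% of all genes. The median of iPS minus ES over these markers was -1.66 log2. Their median value was -0.99 in iPS 492B4, -0.80 in iPS 178B5 and 0.77 in ES, against 3.36 in MEF. Postn differed by -3.47 log2 for iPS 492B4 and -3.47 log2 for iPS 178B5, and Prrx1, a limb mesenchyme factor, by -4.02 log2 for iPS 492B4 and -3.20 log2 for iPS 178B5. Feeder fibroblasts were present in the culture of all 3 lines, and the part of feeder or differentiated cells in the Hox differences was not tested. Primitive endoderm markers ran the other way, with ES below both iPS lines in 16 of 17, against 31.0% of all genes. Strain also separates ES from the iPS lines and cannot be told apart from the line.

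**Figure D4:**
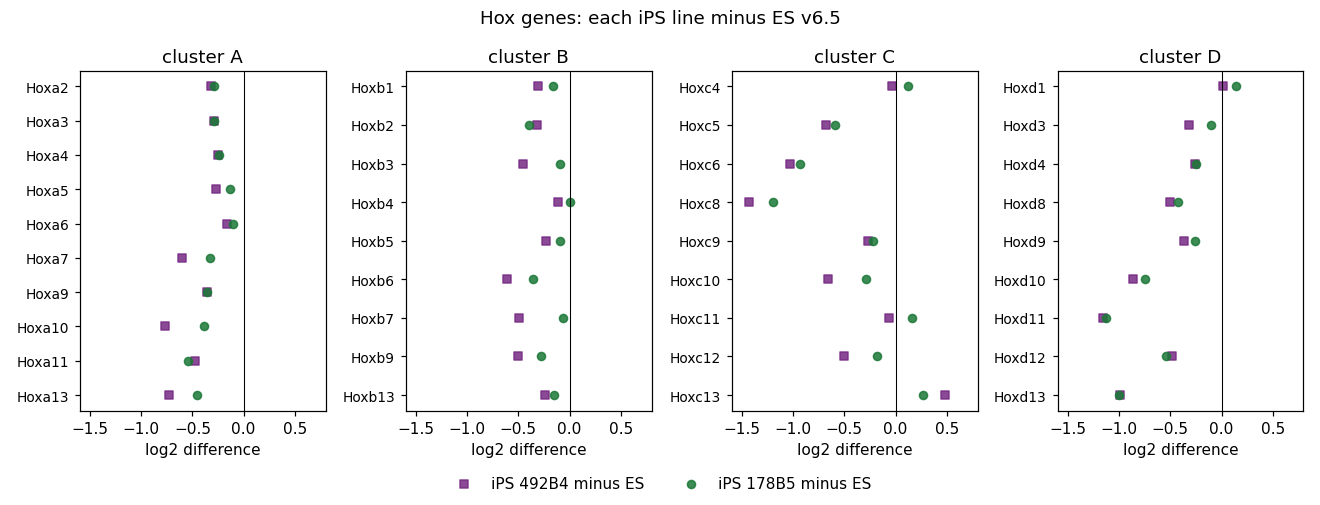
Each iPS line minus ES v6.5 (log2, horizontal axis) for the Hox genes of clusters A to D. Most points lie left of 0, the farthest being Hoxc8 at -1.43 and -1.20, while both points of Hoxc13 and Hoxd1 lie right of it.

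Between the iPS lines, which have 1 array each and so no test, Hox values differed little. The lines were at least 1 log2 apart in 0 of 37 genes (beside 0.612% of all genes), and the median of 492B4 minus 178B5 was -0.11 log2, beside -0.02 log2 over all genes. iPS 492B4 was the lower line in 31 of 37 genes, beside 53.1% of all genes. The largest gaps were in Hoxb7 (-0.43 log2), Hoxa10 (-0.38 log2), Hoxc10 (-0.37 log2) and Hoxb3 (-0.36 log2). For Hoxd13 the lines were 0.01 log2 apart and for Hoxd11 -0.02 log2, small beside their distance from MEF.

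Partners of the Hox proteins were compared with MEF in the same fit. The TALE cofactors of the Pbx, Meis and Pknox families, which bind DNA together with Hox proteins, had 4 of 8 measured members called lower and 0 higher, with a median of -1.02 log2. Over all genes 9.71% were called lower and 7.9% higher. Meis2 read -0.65 in iPS 492B4, -0.05 in iPS 178B5 and 0.05 in ES, against 2.31 in MEF, and fell by 2.53 log2 (adjusted p = 0.0122). Pbx3 fell by 1.79 log2 and Pknox2 fell by 1.66 log2 (adjusted p = 0.00665 and 0.0133), while Pbx2 stood at 0.18 log2 (adjusted p = 0.534). Meis1 was not called and stood at -0.34 log2 from MEF in iPS 492B4, -0.37 in iPS 178B5 and -1.64 in ES. Without iPS 178B5, 2 cofactors were called lower, and without ES 1 was called higher.

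Regulators of Hox transcription moved both ways, with 7 of 33 higher and 6 lower (median -0.11 log2), beside 7.9% and 9.71% of all genes. The largest rises were those of genes for components of the Polycomb complexes, which silence Hox clusters, with Cbx7 at 3.89 log2 (adjusted p = 0.00495), Jarid2 at 3.04 log2 (adjusted p = 0.00495) and Suz12 at 2.20 log2 (adjusted p = 0.0262). Of the other Polycomb genes in the list, Ezh2 was higher (1.53 log2), Bmi1 was lower, and Ezh1, Eed, Rnf2, Ring1, Cbx2 and Cbx8 were not called, at -0.78 (Cbx8) to 1.26 log2 (Ezh1). Wdr5 and Ash2l, subunits of the opposing MLL complexes, were 1.49 and 1.94 log2 higher. The MLL gene Kmt2a (-0.43 log2, adjusted p = 0.127) and Men1 (0.07 log2, adjusted p = 0.865) were not called. The largest falls were those of Crabp2, which carries retinoic acid in the cell (-3.28 log2, adjusted p = 0.0187), of the Polycomb gene Bmi1 (-1.88 log2, adjusted p = 0.0144) and of the retinoid receptor gene Rxra (-1.64 log2, adjusted p = 0.00843). The Cdx genes, direct activators of Hox genes in the embryo, were not called, with Cdx1 at -0.19 log2 (adjusted p = 0.631), Cdx2 at -0.27 log2 (adjusted p = 0.444) and Cdx4 at -0.01 log2 (adjusted p = 0.972). Without iPS 178B5 the number called lower was 1.

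Transcription factors of limb and regional mesenchyme were lower alongside the Hox genes. Of 25 measured 17 were called lower and 1 higher, beside 9.71% and 7.9% of all genes, with a median of -1.49 log2. Tbx15 fell by 4.38 log2 (adjusted p = 0.00738), Prrx2 fell by 3.91 log2 (adjusted p = 0.0122) and the forelimb gene Tbx5 fell by 3.53 log2 (adjusted p = 0.00679). The hindlimb genes Tbx4 and Pitx1 were lower too, at -1.55 and -1.35 log2 (adjusted p = 0.039 and 0.00939). The higher gene was Tbx3 at 1.27 log2 (adjusted p = 0.0424), which was not called with reference centring, without iPS 178B5 or without iPS 492B4. Homeobox genes related to Hox in sequence but outside the clusters had 1 of 13 called lower, Meox2 (-3.25 log2, adjusted p = 0.00638), near the 9.71% of all genes called lower, and a median of -0.19 log2. Meox2 is also counted among the mesenchyme factors, which share Prrx1 with the fibroblast markers. Without iPS 178B5, 8 mesenchyme factors were called lower.

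**Figure D5:**
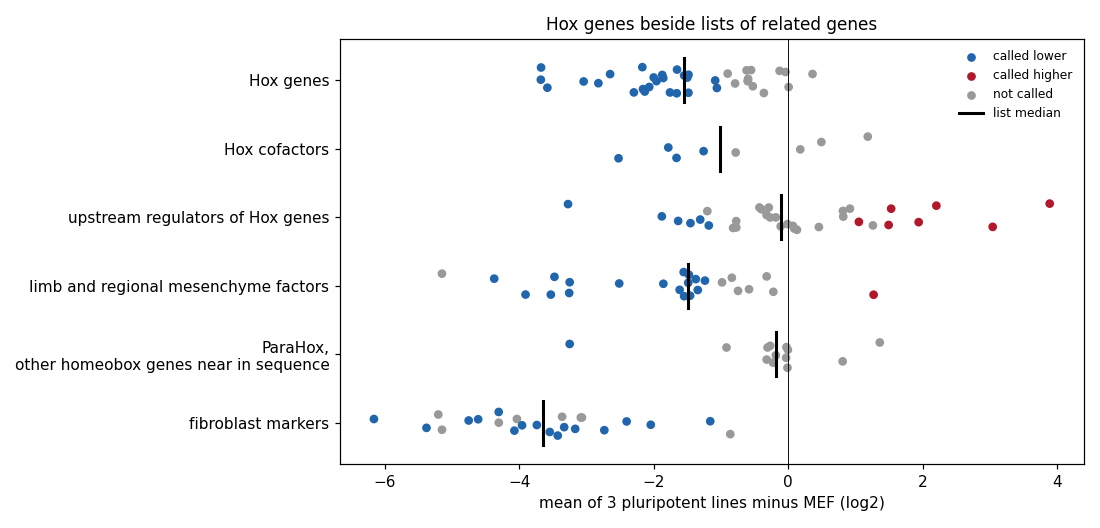
Mean of the 3 pluripotent lines minus MEF (log2, horizontal axis) for each gene of the Hox family and of 5 other lists, with black bars at the list medians. The Hox median is -1.55, that of the mesenchyme factors -1.49 and that of the fibroblast markers -3.65, and red points (called higher) are mostly upstream regulators.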

How the data were processed

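RNA from 4 samples was hybridised to 1-colour arrays. The authors deposited 1 table of log2 values for 28853 probe sets, made with GCRMA (background correction, normalization between arrays and summary per probe set) per the submitters' processing notes. Its version is not given, and neither is the log base, which was taken to be 2. In the deposited table the median of every probe set over the 4 arrays was 0 within 1e-06, so it holds differences between arrays and no levels, and no filter on dim probe sets could be set. With 4 arrays, their number limits the precision.

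Of the probe sets 21789 had 1 symbol in the platform annotation and were averaged per gene (19938 genes); 1621 with several and 5443 with none were left out. All 37 Hox probe sets matched the gene table by identifier, 1 per gene. Lines were compared with MEF by limma 3.58.1 (R 4.3.3), lmFit and eBayes without a trend, 2 residual degrees of freedom, Benjamini-Hochberg over all genes. iPS minus ES used a 3-group fit. The fits were tested on simulated data, with noise on every array, MEF included, drawn from the spread over the lines. That simulation could not test whether the MEF array varies like the lines, since it assumed so. Text names all Hox genes, and for other lists the 3 largest called rises and falls, every noncoding RNA of the clusters; other genes of those lists (such as Pbx2, Meis1, Wdr5, Ash2l, other Polycomb genes, Tbx4, Pitx1, Postn and the Cdx genes) were named after their values were seen. Lists held cofactors, upstream regulators, cluster neighbours, mesenchyme factors, ParaHox genes, reference genes and markers (fibroblast, pluripotency, primitive endoderm, early mesoderm and neural, macrophage and endothelial). Members and lists were chosen with earlier results of these data known. Flanking genes and motifs were chosen after the data were seen. Alternatives covered scaling, probe sets, moderation, grouping, the fold minimum and leaving out each line. No scan date or batch was given.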

Additional observations from a re-analysis of the deposited data

Results flagged for a closer look

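Hoxb1 and Hoxb13 stood out because both iPS lines read below MEF while ES read above it. For Hoxb1 iPS minus ES was -0.24 log2, with iPS 492B4 at -0.15, iPS 178B5 at -0.0001 and ES at 0.16 log2 from MEF (limma adjusted p for iPS minus ES = 0.507). For Hoxb13 it was -0.19 log2 (adjusted p = 0.56), so neither difference passed the test.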

How the results depend on the processing

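Leaving out single lines changed most. Across those fits the number of genes called was 744 to 2235 lower and 613 to 1981 higher, of Hox genes called lower 9 to 24, and by cluster 5 to 9 (A), 1 to 5 (B), 0 to 5 (C) and 3 to 5 (D); by class it was 2 to 4 anterior, 2 to 9 central and 5 to 11 posterior. The low ends came without iPS 178B5, though each of those fits had the same number of arrays. For the lists the ranges were 2 to 4 cofactors lower and 0 to 1 higher, 1 to 6 upstream regulators lower, 1 to 4 cluster neighbours higher, 8 to 19 mesenchyme factors lower and 0 to 1 higher, 0 to 1 ParaHox and related genes higher, 5 to 24 fibroblast markers lower, 0 to 7 primitive endoderm markers higher, 1 to 2 early mesoderm and neural markers higher, 1 to 2 macrophage and endothelial markers lower, and 1 to 2 reference genes lower and 1 to 2 higher. With reference centring the cluster B median was -1.22 log2, and -0.99 log2 with equal array medians. iPS minus ES gave 76 and 44 calls over all genes under these scalings, with no Hox gene among them. Reference centring also gave 1 cluster neighbour and 2 ParaHox and related genes lower, and 0 mesenchyme factors, 0 primitive endoderm markers and 1 reference gene higher. Without the fold minimum 3 cluster neighbours and 2 ParaHox and related genes were lower, and the 3-group fit gave 5 primitive endoderm and 2 early mesoderm and neural markers higher. The cause of these shifts was not tested. Hoxc4 was called with reference centring and without the fold minimum. Hoxb1 stood at -0.16 log2 with reference centring and, with 1 line left out, between -0.075 (without ES) and 0.081 log2 (without iPS 492B4). Hoxb13 stood at 0.031 log2 with equal medians and between -0.11 (without ES) and 0.011 log2 (without iPS 492B4). Under the largest-range probe set, single-probe-set genes, robust moderation and the 3-group fit, all 37 Hox genes kept direction and side of the threshold. The filter on dim probe sets was not run, since the table holds no levels. No paired analysis was possible because each line and the MEF had 1 array, which left no repeats to pair.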

Other observations

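Of the lists not described in the report, 1 of 14 early mesoderm and neural markers was higher in the lines, Otx2 at 4.88 log2, and 1 lower, Map2 at -2.41 log2 (limma adjusted p = 0.00679 and 0.00596). Of 13 macrophage and endothelial markers 2 were higher (Pecam1 at 4.23 and Laptm5 at 3.11 log2) and 2 lower (Erg at -1.93 and Emcn at -1.89 log2). Cited1 was the only one of 17 primitive endoderm markers called against MEF, at 1.06 log2 (adjusted p = 0.0364), and 7 were called higher without ES. Of 14 reference genes Tfrc (2.77 log2) and Tbp (1.02 log2) were higher and Gusb (-1.53 log2) and B2m (-1.43 log2) lower. The list of 27 measured genes beside or inside the clusters, noncoding RNAs included, had 3 higher, 0 lower and a median of -0.07 log2. Over all genes 9.71% were called lower and 7.9% higher.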
